A study of Homo sapiens with 3 samples.

Results

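Metallothioneins are small, cysteine-rich proteins that bind zinc, copper and cadmium, and ferritin is the protein shell in which cells store iron. The 8 genes described here, the metallothionein genes MT1A, MT1E, MT1F, MT1G, MT1X and MT2A and the ferritin chain genes FTL and FTH1, were chosen by symbol from a table of 15466 gene symbols, and all 8 had a row. They were read in 22Rv1, a human prostate cancer cell line, 48 h after the cells received 20 μg of plasmid that encodes MLPH transcript V1 or MLPH transcript V4. MLPH is the gene of melanophilin, an adaptor in melanosome transport. The study has 3 samples, 1 for each of V1, V4 and an empty vector. The V1 and V4 libraries were compared; the remaining column of the table names no transfection, so the empty vector was not analysed here, and no value below says whether a gene moved away from an untransfected or vector level.

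Metallothionein genes lie side by side on chromosome 16. Their transcription is driven by MTF1, a factor that senses free zinc and binds metal response elements in their promoters, and by glucocorticoids and oxidative stress. Ferritin is controlled mainly at translation: iron regulatory proteins, encoded by ACO1 and IREB2, bind an iron-responsive element near the start of the FTL and FTH1 messengers when iron is scarce and block their use. FTH1 encodes the heavy chain, which oxidises iron, and FTL the light chain, which helps the iron core to form. In prostate tissue, which holds much zinc, metallothioneins are known as a zinc buffer.

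The iron-responsive elements are shown because they mark what FTL and FTH1 share at the level of sequence. Both come from the transcript start region in GENCODE v29 (GRCh38), 5′ to 3′, with the loop motif CAGTGN in capitals.
FTL: tcttgcttcaaCAGTGTttggacggaac
FTH1: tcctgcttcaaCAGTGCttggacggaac
The stretches shown were identical at 26 of 28 bases. Searched on the sense strand with N at the differing bases, the stretch was found in transcripts of 2 of 57133 gene names, FTL and FTH1 themselves. The searched letters were taken from these same stretches, so the search had to find both genes. It misses any iron-responsive element with other bases and does not show that the element is limited to ferritin. Elsewhere the ferritin genes are less alike, with 61.1% identity over their coding sequences.

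The promoters of MT2A and MT1X are shown for their metal response elements, and that of FTL is shown beside them. RefSeq promoter sequences (GRCh38.p14) were matched for 3 of the 8 genes, and the 250 bases before each start are printed 5′ to 3′. Capitals in the MT2A and MT1X promoters mark the metal response element core, searched on both strands as TGCACNC or TGCGCNC. The FTL promoter held 0 matches to it and 0 matches to the antioxidant response element core TGACNNNGC, also searched on both strands, so it has no capitals.
MT2A (chr16:56608334-56608583, plus strand): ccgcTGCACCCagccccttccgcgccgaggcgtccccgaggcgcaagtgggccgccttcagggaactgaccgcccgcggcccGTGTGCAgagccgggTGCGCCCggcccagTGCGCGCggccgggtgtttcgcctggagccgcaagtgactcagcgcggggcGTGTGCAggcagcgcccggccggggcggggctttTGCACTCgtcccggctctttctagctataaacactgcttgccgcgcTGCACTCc
MT1X (chr16:56682220-56682469, plus strand): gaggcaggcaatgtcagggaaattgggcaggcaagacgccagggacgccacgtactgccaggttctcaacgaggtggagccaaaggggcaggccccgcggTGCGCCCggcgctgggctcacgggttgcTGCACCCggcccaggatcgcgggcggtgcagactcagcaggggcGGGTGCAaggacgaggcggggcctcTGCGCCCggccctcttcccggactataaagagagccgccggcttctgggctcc
FTL (chr19:48965059-48965308, plus strand): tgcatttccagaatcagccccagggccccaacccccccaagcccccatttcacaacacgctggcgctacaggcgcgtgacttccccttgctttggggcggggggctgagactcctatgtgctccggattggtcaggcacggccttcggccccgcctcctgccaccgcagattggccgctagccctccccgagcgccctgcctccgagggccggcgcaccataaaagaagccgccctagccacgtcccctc
MT2A had 7 matches to the metal response element core and MT1X had 4, none overlapping another. Of 35116 promoters of this length in the table, 24.8% held at least 1 match, 0.370% held 4 or more, and 11 promoters (0.0313%) held 7 or more, among them those of MT2A and its relative MT1H. MT2A and MT1X also had 1 match each to TGACNNNGC, which 10.9% of promoters held. A match describes letters and does not show that a factor was bound.

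The coding sequences of 4 metallothionein genes are shown because they are near copies: MT2A and MT1X, whose proportion to each other was nearly the same in both libraries, and MT1E and MT1F, whose counts relative to MT2A were higher in the V4 library. They come from GENCODE v29 principal transcripts, 5′ to 3′, with bases that differ from MT2A in capitals.
MT2A: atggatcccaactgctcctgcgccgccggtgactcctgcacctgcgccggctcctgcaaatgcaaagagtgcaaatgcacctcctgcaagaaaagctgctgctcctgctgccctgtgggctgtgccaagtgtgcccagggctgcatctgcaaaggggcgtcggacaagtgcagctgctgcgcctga
MT1X: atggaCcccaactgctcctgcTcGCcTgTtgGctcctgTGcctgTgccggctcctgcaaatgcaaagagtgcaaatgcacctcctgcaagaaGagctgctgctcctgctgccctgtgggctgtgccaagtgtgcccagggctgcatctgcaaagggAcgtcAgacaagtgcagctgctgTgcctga
MT1E: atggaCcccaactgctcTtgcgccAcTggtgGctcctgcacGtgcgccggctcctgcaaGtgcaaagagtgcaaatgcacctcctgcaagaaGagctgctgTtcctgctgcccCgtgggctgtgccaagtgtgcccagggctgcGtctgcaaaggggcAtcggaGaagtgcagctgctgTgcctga
MT1F: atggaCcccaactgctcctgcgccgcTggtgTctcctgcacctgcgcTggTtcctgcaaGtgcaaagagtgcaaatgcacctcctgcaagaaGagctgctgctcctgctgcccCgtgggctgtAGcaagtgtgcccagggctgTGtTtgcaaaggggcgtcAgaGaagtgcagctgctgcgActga
Each of the 6 metallothionein coding sequences had 186 bases and 61 codons before the stop, of which 20 encode cysteine. Identity between pairs ran from 88.7% (MT1F and MT1X) to 95.2% (MT1G and MT2A). Relative to MT2A, counts of MT1G were also higher in V4, at 1.13 times the V1 value (interval 1.08 to 1.19). Those of MT1A were lower, at 0.381 times (interval 0.216 to 0.643). Whether likeness in sequence goes with these proportions was not tested. At the sequenced read length of 150 bases, 0% of windows along the MT1A, MT1E, MT1F, MT1G, MT2A and FTL transcripts occurred word for word in a transcript of another gene. For MT1X the share was 5.65%, found in 1 other gene model, and for FTH1 it was 0.741%. At 50 bases the share was higher, at 45.1% for MT1X, 40.4% for FTH1, where the other genes were mostly its pseudogenes, 20.2% for MT1G and 18.3% for FTL. How the authors treated reads that fit several genes and whether they used strand are both not given in the sources used here. As a result, the counts of these near copies are uncertain. The shares above do not bound that uncertainty, since they count only word-for-word matches to transcripts.

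The libraries had 9248734 (V1) and 9604272 (V4) counts in named genes. With 1 library for each transcript, the differences are without replicates and none could be tested. Intervals are exact, at 95%, and cover counting error alone, and without molecular identifiers amplified copies of 1 molecule count as separate reads. MLPH, the transfected gene, had 7219 and 7773 counts, and since both plasmids carry MLPH this does not check the labels. Of 11 prostate markers, 8 had a row and all 8 had counts, with FOXA1 at 5861 and 6205 counts, while KLK2 (8 and 13) and TMPRSS2 (1 and 2) were near 0. Summed markers of fibroblasts stood at a CPM (counts scaled to the library total) of 167 for V1 and 5.0 for V4, for 4 of 6 listed genes with a row, of which COL3A1 and PDGFRB were at 0 in V4. Those of red cells were at 27.2 and 18.9 CPM (3 of 3), of leukocytes at 10.1 and 6.77 (4 of 6, PTPRC and CD3E at 0 in both), and of endothelium at 0 and 0.625 (2 of 3, CDH5 at 0 in both). The fibroblast sum was thus lower in V4, as most of the 8 genes were, with COL1A2 at 976 and 4 counts and LUM at 33 and 44. The part of these markers in the results was not tested.

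The study transfected the MLPH transcripts to read their effect on signalling, and V4 was compared here with V1. The ferritin chains and the main metallothioneins were lower in the V4 library, and MT1E and MT1F were about level. MT1A, the rarest of the 8 genes, had the widest gap. Together the 8 genes took 0.586% of all V1 counts (interval 0.581% to 0.591%) and 0.424% of all V4 counts (0.420% to 0.428%). In bulk RNA, fewer cells that express a gene and less RNA per cell cannot be told apart.

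**Figure D1:**
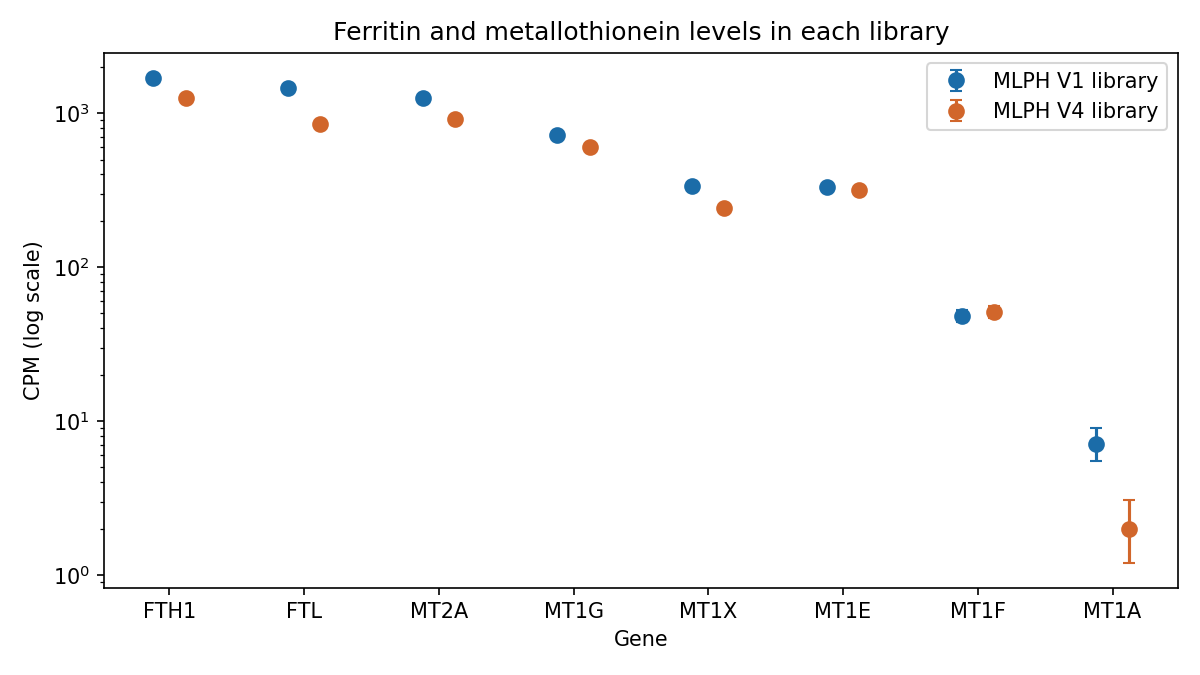
Level of each gene as CPM (log axis) in the V1 and V4 libraries, 1 library each, with bars for the 95% Poisson interval of counting error. FTH1, FTL, MT2A, MT1G and MT1X sit lower in V4, MT1E and MT1F are close, and MT1A is the lowest gene in both.

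FTL was counted 13523 times in V1 and 8219 times in V4, or 1462 and 856 CPM. After scaling of the libraries by TMM it was 1.66-fold lower in V4 (interval 1.62 to 1.71), the largest gap among the 7 abundant genes. FTL ranked 64th by count among all genes in V1 and 141st in V4.

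FTH1, the most abundant of the 8 genes by count, had 15584 counts in V1 and 12053 in V4, or 1685 and 1255 CPM. It was 1.31-fold lower in V4 (interval 1.28 to 1.34), a smaller gap than that of FTL. The mix of chains therefore differed: FTL made up 46.5% of ferritin counts in V1 (interval 45.9% to 47.0%) and 40.5% in V4 (39.9% to 41.2%). The ratio of FTL to FTH1 counts went from 0.868 to 0.682, so that in V4 it stood at 0.786 of its V1 value (interval 0.758 to 0.815). A ratio of both chains within a library does not depend on how the libraries are scaled. It can still depend on a trend on the GC content of transcripts. With a smooth GC trend removed, the log2 ratio, V4 over V1, went from -0.73 to -0.65 for FTL and from -0.39 to -0.40 for FTH1. The ferritin counts summed to 29107 in V1 and 20272 in V4, 1.45-fold lower in V4 (interval 1.43 to 1.48).

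MT2A, the main metallothionein by count, had 11641 counts in V1 and 8799 in V4, or 1259 and 916 CPM, and was 1.34-fold lower in V4 (interval 1.30 to 1.38). MT1X, whose promoter is printed above with that of MT2A, had 3110 and 2317 counts and was 1.36-fold lower (interval 1.29 to 1.43). MT2A and MT1X stood in nearly the same proportion in both libraries: 0.267 MT1X counts per MT2A count in V1 and 0.263 in V4, a ratio of 0.986 with an interval from 0.927 to 1.05.

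MT1G was lower in V4 by a smaller step. It had 6718 and 5759 counts, 1.18-fold lower (interval 1.14 to 1.22). MT1E, with a count close to that of MT1X in V1, had 3076 counts in V1 and 3030 in V4, a ratio of V4 over V1 of 0.974 whose interval, 0.926 to 1.02, included 1. MT1F was read at 447 and 492 counts, a ratio of 1.09 (interval 0.955 to 1.24). It was the one gene of the 8 with more counts in V4 after scaling, though its interval included 1.

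MT1A had 66 counts in V1 and 19 in V4, or 7.14 and 1.98 CPM. It was 3.51-fold lower in V4, and the low counts leave an interval from 2.08 to 6.20. MT1A made up 0.263% of the metallothionein counts in V1 and 0.0931% in V4, so it hardly enters the family's sum. The 6 metallothionein genes summed to 25058 counts in V1 and 20416 in V4, 1.24-fold lower in V4 (interval 1.22 to 1.26).

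**Figure D2:**
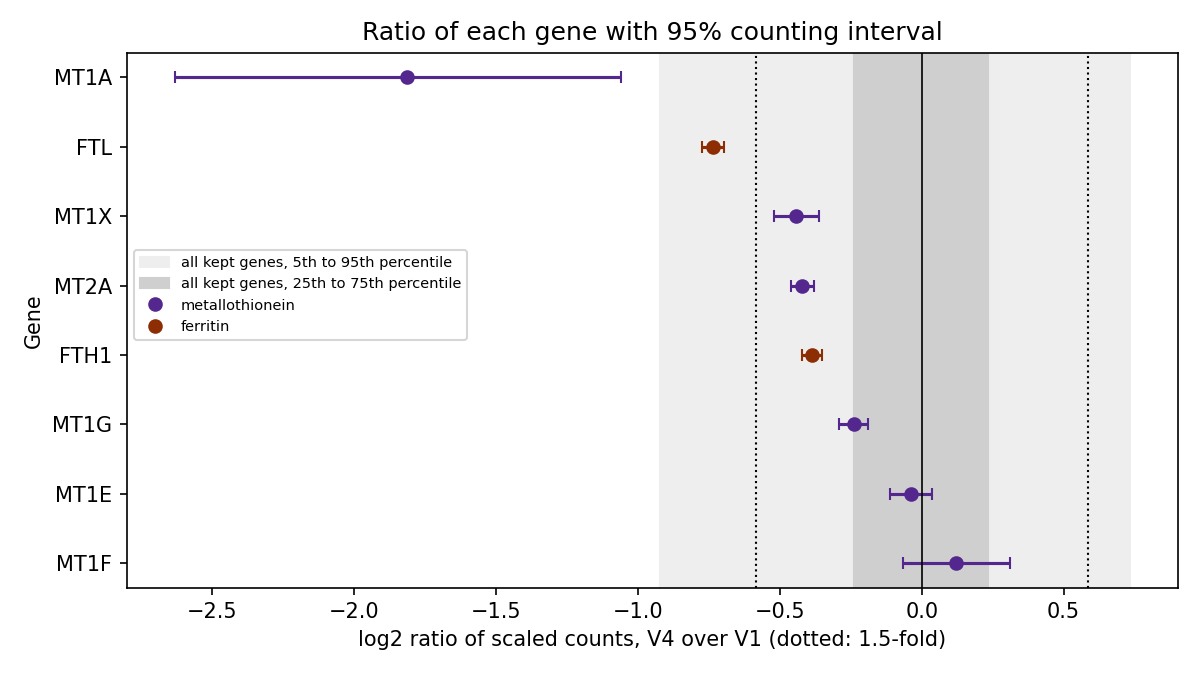
Log2 ratio of scaled counts, V4 over V1, for each gene with its 95% counting interval, over grey bands for the central ranges of 8823 kept genes. MT1A (3.51-fold) and FTL (1.66-fold) lie beyond the dotted 1.5-fold line, and the intervals of MT1E and MT1F cross 0.

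Of the 8 genes, 2 (MT1A and FTL) were at least 1.5-fold lower in V4 with an interval that excluded 1 and 0 were higher, where 7.06% of the 8823 genes with a mean CPM of at least 1 were lower and 5.57% higher. Folds for these calls use counts with 2 added in proportion to library size, which pulls rare genes toward a ratio of 1. At a ratio of 0.8 or less with an interval that excluded 1, 5 of the 8 were lower (MT1X, MT2A and FTH1 in addition). Of all kept genes, 12.5% met both conditions. By the same factor and interval condition 0 of the 8 were higher, where 11.6% of all kept genes were. An interval wholly below 1 was found for 6 of the 8 and for 20.8% of kept genes, a share that grows with depth. The median log2 ratio was -0.40 over the 8 genes and -0.00 over all kept genes, whose 5th and 95th percentiles were -0.92 and 0.73. All 8 genes passed the filter on low counts in both libraries.

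The make-up of the metallothionein pool differed between the libraries. MT2A went from 46.5% of the counts of the 6 genes in V1 (interval 45.8% to 47.1%) to 43.1% in V4 (42.4% to 43.8%). MT1E took the opposite path, from 12.3% (11.9% to 12.7%) to 14.8% (14.4% to 15.3%). MT1G went from 26.8% to 28.2%, MT1X from 12.4% to 11.3%, and MT1F from 1.78% to 2.41%, each with intervals that did not overlap. MT1X and MT1E changed places in rank, with MT1X ahead in V1 by a margin within counting error and MT1E ahead in V4. The ratio of MT1E to MT2A counts was 1.30 times higher in V4 (interval 1.23 to 1.38), and that of MT1F to MT2A 1.46 times higher (1.27 to 1.66). Of 15 pairs among the 6 genes, 13 had such a ratio with an interval that excluded 1. The exceptions were MT1X with MT2A and MT1E with MT1F, the latter at 0.895 (0.778 to 1.03). The share of pairs of other genes with such an interval was not computed, and it grows with depth. The count of 13 is therefore not read as particular to these genes. These ratios are free of library scaling, and their intervals cover counting error only. They are not free of a trend on the GC content of transcripts. With a smooth GC trend removed, the log2 ratio, V4 over V1, went from -0.42 to -0.23 for MT2A and from -0.44 to -0.38 for MT1X. For MT1E it went from -0.04 to 0.01. MT2A and MT1X thus had nearly the same step only without that adjustment.

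**Figure D3:**
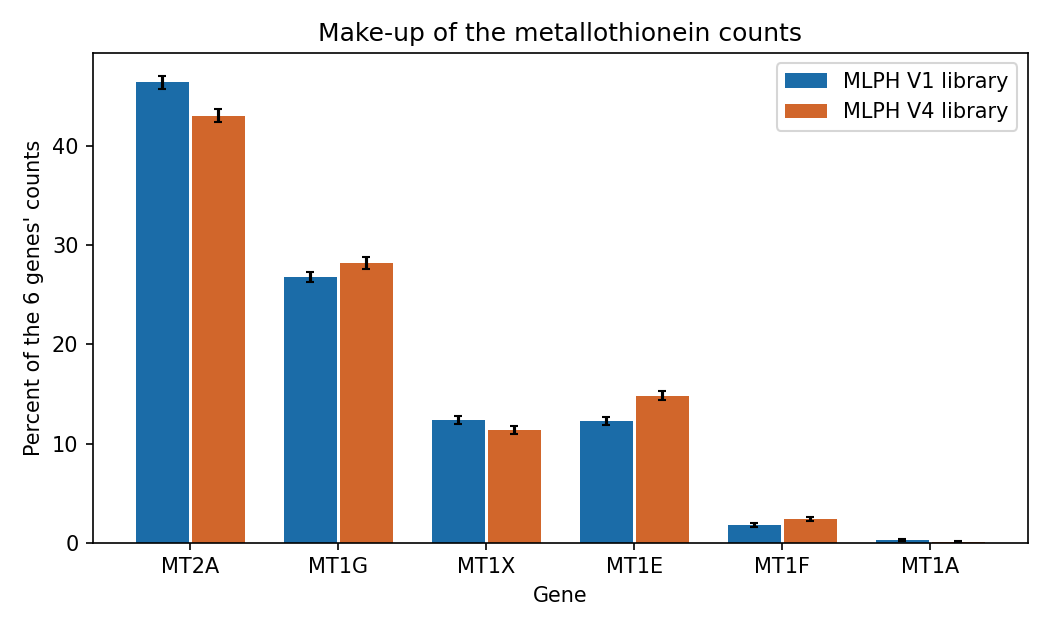
Share of each gene in the summed counts of the 6 metallothionein genes, in percent, for the V1 and V4 libraries, with bars for the 95% binomial interval. MT2A and MT1X take a smaller share in V4, and MT1G, MT1E and MT1F a larger one.

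Levels can be compared between genes only per length. In CPM per kilobase of principal transcript, MT1G stood at 1789 in V1 and 1477 in V4, the highest of the 8 genes in both. FTL (1665), MT2A (1601) and FTH1 (1371) followed in V1. In V4 the order behind MT1G was MT2A (1166), FTH1 (1021) and FTL (975), so FTL stood below FTH1 there and above it in V1. MT1X (747 and 536), MT1E (472 and 448), MT1F (70.0 and 74.2) and MT1A (18.0 and 5.0) came after them in both libraries. The order at the top rests on the transcript model: on the shortest complete coding transcript FTH1 led at 3323 CPM per kilobase in V1, and on the longest one MT1G fell to 1157.

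Short transcripts as a class were lower in the V4 library. Among 1725 genes with a mean CPM of at least 100, the median log2 ratio was 0.01, and among the 222 of them with a transcript of up to 1300 bases it was -0.18. The principal transcripts of the 8 genes were 396 to 1229 bases long, while the class was set by the longest coding transcript. That class of 222 genes includes 6 of the 8. With an interval that excluded 1, 18.0% of it had a ratio of 0.8 or less and 2.70% were at least 1.5-fold lower. The same shares of the 1725 genes were 6.32% and 0.580%. FTL, MT2A, MT1X and FTH1 were below the class's 25th percentile of -0.29, FTL also below its 5th percentile of -0.45, and MT1E above its 75th percentile of -0.09. These cutoffs were chosen after the values were seen.

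With a smooth trend on transcript length removed, the log2 ratio of FTL went from -0.73 to -0.57, which is just short of 1.5-fold. MT2A then stood at -0.25, MT1X at -0.28, FTH1 at -0.24 and MT1G at -0.07. MT1A remained past 2-fold at -1.56. MT1E turned to 0.13 and MT1F stood at 0.29. The order of the 8 ratios was the same as before, from MT1A and FTL lowest to MT1F highest. The length trend removed was nearly equal for all 8, from -0.14 for FTH1 to -0.17 for MT2A, so it could hardly change that order. With the GC trend removed the order did change, with FTH1 (-0.40) below MT1X (-0.38) and MT2A (-0.23). Cytosolic ribosomal protein genes, also short and abundant, had a median of -0.17 over 67 kept genes, with 4 lower and 0 higher at 1.5-fold, and -0.07 with that trend removed.

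**Figure D4:**
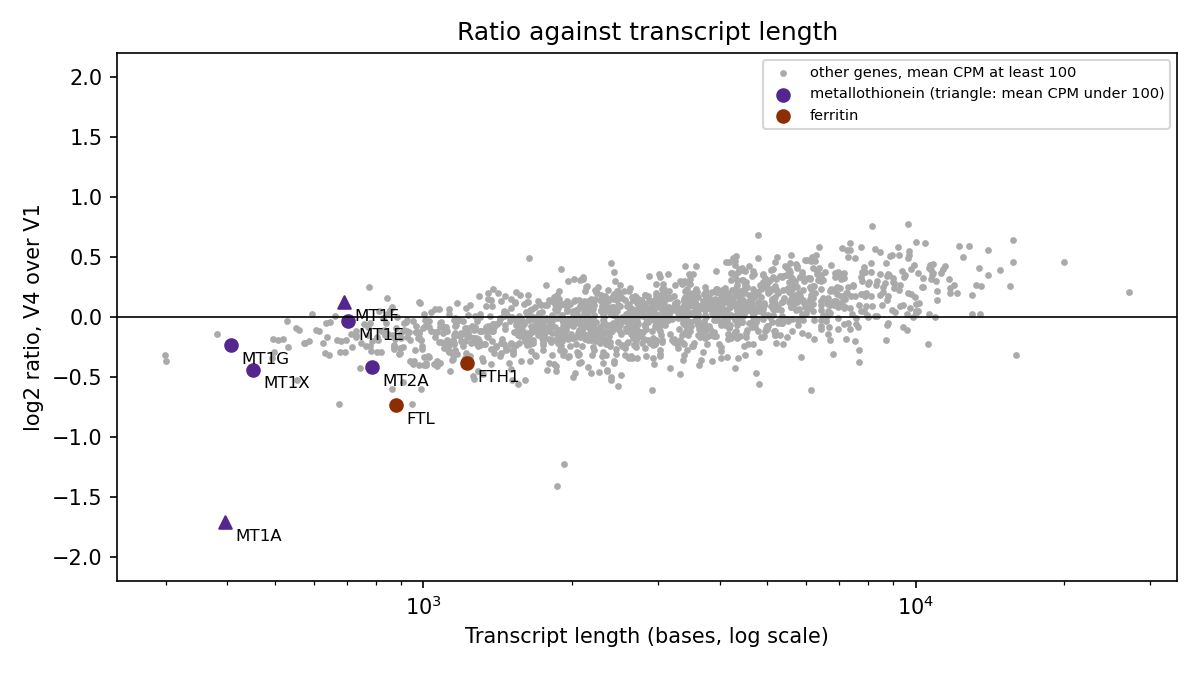
Log2 ratio, V4 over V1, against transcript length (log axis) for genes with a mean CPM of at least 100 (grey) and for the 8 genes (coloured; triangles mark MT1F and MT1A, whose mean CPM is lower). Grey genes are placed by their longest coding transcript and the 8 genes by their principal transcript, which can be shorter. Grey points drift downward toward short transcripts, where the median was -0.18, FTL lies below most of them, and 1 grey gene falls outside the axis.

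Other metallothionein genes with a row had fewer counts than MT1F. MT1H and MT1HL1 had more counts than MT1A in both libraries, and MT1M had more in V4. MT1H had 338 and 322 counts, a ratio of 0.942 (interval 0.806 to 1.10), MT1HL1 had 91 and 106, and MT1M 36 and 32, each with an interval that included 1. MT3 and MT4, expressed mainly in brain and in squamous epithelium, and MT1B had 0 counts in both libraries. By counting error alone that allows up to 0.324 CPM in V1 and 0.312 CPM in V4, a limit that does not hold if reads shared between near copies were dropped, on which the sources used here say nothing. In the list of ferritin pseudogenes and mitochondrial ferritin, 0 genes were kept.

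Of 11 kept genes of zinc sensing and transport, 1 was at least 1.5-fold higher in V4, 0 were lower and 10 were neither, with a median log2 ratio of 0.26. That median was 0.10 with the length trend removed and 0.09 with a GC trend removed. SLC30A10, a cell-surface exporter best known for manganese, had 131 counts in V1 and 219 in V4, 1.65-fold higher (interval 1.32 to 2.07). SLC30A9, the most abundant, had 3179 and 3841, a ratio of 1.19 (interval 1.14 to 1.252). The zinc sensor MTF1 had 655 and 806 counts, a ratio of 1.22 (interval 1.10 to 1.35), and SLC30A1, a zinc exporter and itself an MTF1 target, 2216 and 2633, a ratio of 1.17 (interval 1.11 to 1.24). The ratios of MT2A and MT1X, set beside it, were 0.747 and 0.737. SLC30A6, a zinc transporter gene of the secretory pathway, had 45 and 28 counts, and the zinc importer gene SLC39A10 had 76 and 56, ratios of 0.615 (interval 0.370 to 1.01) and 0.728 (interval 0.506 to 1.04).

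Among 13 kept genes of iron uptake, release and regulation, 2 were at least 1.5-fold lower, 1 higher and 10 neither, with a median of -0.05. LCN2, which carries iron bound to siderophores, was the far exception of the list, at 1359 counts in V1 and 6 in V4, 229-fold lower (interval 105 to 625). SLC40A1, the iron exporter ferroportin, had 29 and 14 counts, 2.10-fold lower (interval 1.07 to 4.29). SLC11A1, an iron transporter of phagosomes, had 20 and 39, a ratio of 1.93 (interval 1.10 to 3.49). PCBP1, the chaperone that delivers iron to ferritin and the most abundant gene of the list, was close to level at 11034 and 10206 counts, a ratio of 0.914 (interval 0.890 to 0.939). IREB2, which encodes iron regulatory protein 2, had 1844 counts in V1 and 2786 in V4, a ratio of 1.49 (interval 1.41 to 1.59), just under the 1.5-fold line, on a transcript of 6354 bases. ACO1, which encodes the other iron regulatory protein, had 64 and 55, with an interval that included 1. The iron importer gene SLC11A2 was level at 2312 and 2411. NCOA4, the receptor that takes ferritin to the lysosome, had 7 and 0 counts and was not kept. Low counts in this table are not read as low expression, since genes that every cell uses were also low in it, such as the ribosomal protein gene RPL19 (64 and 38) and the thioredoxin reductase gene TXNRD1 (1 and 0).

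Heme genes had 1 of 14 kept members higher, 0 lower and a median of 0.02. HMOX1, which frees iron from heme and was the most abundant, had 15322 counts in V1 and 12407 in V4, a ratio of V4 over V1 of 0.801 (interval 0.782 to 0.820). With no trend removed, that step was smaller than those of MT2A and FTH1, whose ratios were 0.747 and 0.765. HMOX1 was not compared with them after a length or GC trend was removed. The heme exporter gene FLVCR1 had 41 and 65 counts, 1.57-fold higher (interval 1.04 to 2.38). Iron-sulfur cluster genes had 0 of 20 members past 1.5-fold in either direction and a median of -0.12. HSPA9, their chaperone and most abundant member, had 25376 and 28967 counts, a ratio of 1.13 (interval 1.11 to 1.15). Copper handling genes had 0 of 11 past 1.5-fold and a median of 0.12, with SOD1, the copper and zinc superoxide dismutase, at 5332 and 5112 counts.

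NRF2 targets and glutathione genes, a programme that also induces ferritin, had 2 of 14 kept members lower, 1 higher and 11 neither, with a median of -0.11. SRXN1, which repairs oxidised peroxiredoxins, was 1.81-fold lower (interval 1.62 to 2.02), and MAFG, a dimer partner of NRF2, 1.96-fold lower (interval 1.53 to 2.53). SLC7A11, the cystine importer, was 1.71-fold higher (interval 1.56 to 1.87). The autophagy receptor gene SQSTM1, the most abundant, was level at 9361 and 9378 counts. In the lipid peroxidation and ferroptosis list, 1 of 11 was higher (ALOX15, 49 and 88 counts), 0 were lower and the median was -0.28, or -0.18 with a GC trend removed. HSPB1, a small heat shock protein gene and the most abundant of that list, had 12081 and 8388 counts, 1.46-fold lower (interval 1.42 to 1.5). GPX4, which reduces lipid peroxides, had 2521 and 1927 counts, a ratio of 0.756 (interval 0.712 to 0.802).

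Glucocorticoid receptor targets, read because the receptor also acts on MT2A, had 1 of 7 kept members lower, 1 higher and 5 neither, with a median of 0.09. CEBPD was 1.82-fold lower (interval 1.53 to 2.17) and FKBP5 1.90-fold higher (interval 1.34 to 2.72). PDK4, the most abundant, had 23365 and 31690 counts, a ratio of 1.34 (interval 1.32 to 1.36). Over all 11 lists, without the 8 genes themselves, 9 of 171 kept genes were at least 1.5-fold lower and 6 higher. Neither share was above that of all kept genes, which was 7.06% lower and 5.57% higher. The lists are small, so the few genes called in a list are not read as a result about that list.

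**Figure D5:**
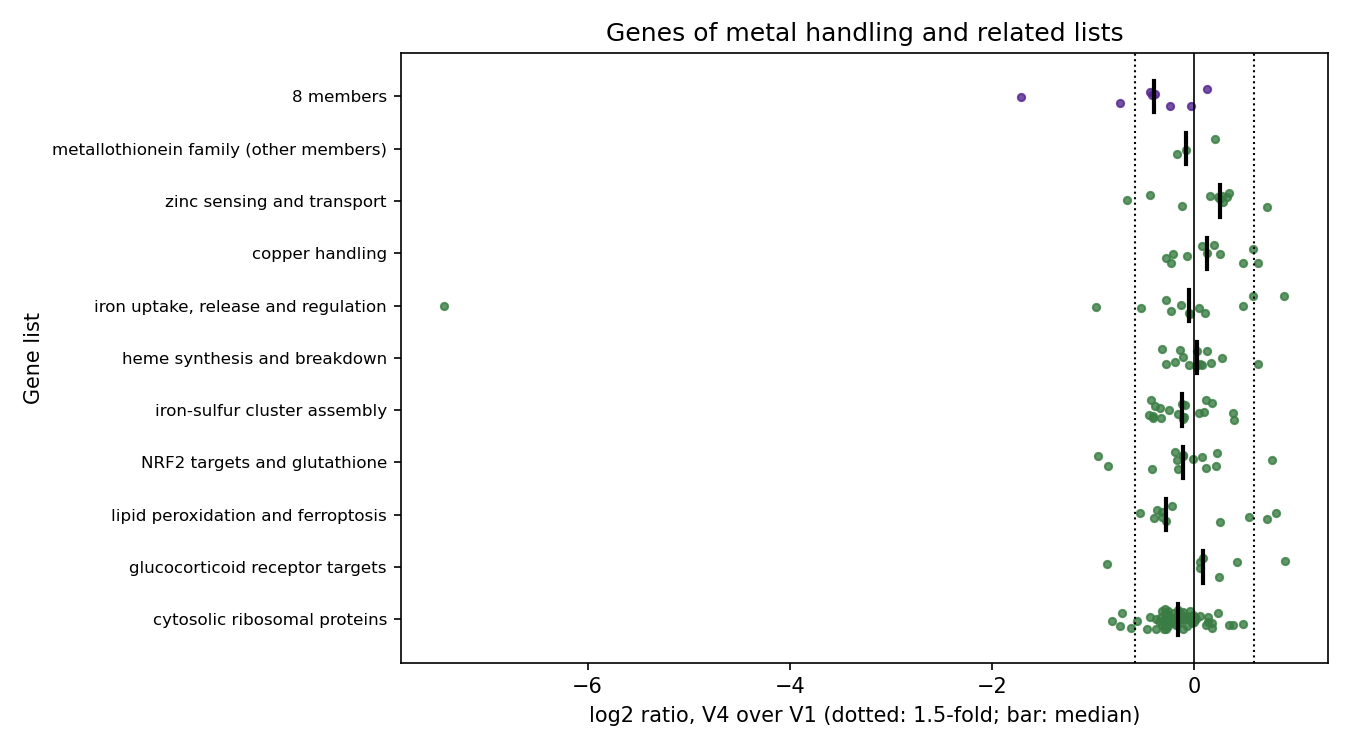
Log2 ratio, V4 over V1, of each kept gene in the lists of metal handling and related processes (points) with the list median (bar) and the 1.5-fold lines (dotted). The 8 genes have a median of -0.40, the zinc list 0.26, and LCN2 is the point far to the left.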

How the data were processed

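RNA of 22Rv1 cells transfected with MLPH V1, MLPH V4 or empty vector was enriched for poly(A) and sequenced as 150 base single-end reads, per the labels' protocols. The authors deposited raw counts, 1 row per gene symbol, from reads placed on hg19, per the submitters' processing notes. The sources used here do not name the aligner, the counting program, its annotation or strand setting, or the handling of reads that fit several genes. The design text mentions a technical replicate, but the table has 1 column each for V1 and V4 and 1 that names no transfection. Columns were tied to samples by name, and 1 column that names no transfection was not used, so the planned comparisons with the empty vector were not run.

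Of 15512 rows, 22 carried a date in place of a symbol (0.0518% of counts) and were left out of library sizes. Counts of 21 repeated symbols were summed. Genes with a mean CPM of at least 1 were kept (8823). Libraries were scaled by TMM in edgeR 4.0.16 (R 4.3.3), which gave V1 a factor of 1.01 and V4 one of 0.987. Ratios have exact conditional binomial intervals (Clopper-Pearson, scipy 1.17.1), levels exact Poisson intervals, and ratios of ratios exact conditional odds ratio intervals. A call needed 1.5-fold with a prior count of 2 and an interval excluding 1. A count of 0 was read as up to 3 counts. With 1 sample per group there were no tests. The calling step was tested on simulated data.

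The 8 genes and the 11 lists were chosen with earlier results of these data known. Named genes were the 8 genes, MLPH, and from each list the 3 kept genes with the largest absolute log2 ratio and the most abundant one, with some left out for space. MTF1, SLC30A1, IREB2, ACO1, SLC11A2, NCOA4, GPX4, TXNRD1 and the marker genes were named for their roles, after their values were seen. Transcripts came from GENCODE v29 and promoters from RefSeq, both on GRCh38, and coding sequences were aligned with Biopython 1.88. Length and GC of the longest coding transcript were found for 91.5% of kept genes, and their trends are lowess curves from statsmodels 0.14.6 with a fraction of 0.3. Figures were drawn with matplotlib 3.10.9.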

Additional observations from a re-analysis of the deposited data

How the results depend on the processing

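The count of 2 of the 8 genes at least 1.5-fold lower in V4 held, with the same genes MT1A and FTL, under scaling by upper quartile, by total counts or by DESeq2 1.42.0 size factors, prior counts of 0.5 and 8, no filter, calls that ignore the interval, a V4 library thinned to the size of V1, and a GC trend removed. It was 1 with a filter at a mean CPM of 10, where MT1A is not tested, 1 at 2-fold (MT1A), 1 with a transcript length trend removed (MT1A), and 5 at a ratio of 0.8 or less. Over all kept genes, the 623 lower and 491 higher became 159 and 145 with that filter, 1105 and 1022 at the line of 0.8 and its inverse, and 379 and 187 at 2-fold. Over the related lists, the 9 lower and 6 higher became 27 and 10 at the line of 0.8 and its inverse and 1 and 0 at 2-fold, and 2 were higher with that filter. The fold and filter settings change these counts by construction; for the length trend the cause was not tested. Log2 ratios ranged over the settings from -0.77 to -0.57 for FTL, -0.42 to -0.24 for FTH1, -0.46 to -0.23 for MT2A, -0.48 to -0.28 for MT1X, -0.28 to -0.07 for MT1G, -1.79 to -1.47 for MT1A, -0.08 to 0.13 for MT1E and 0.08 to 0.29 for MT1F. MT1E alone among the 8 changed sign. No paired analysis was possible because each group has 1 library. The planned comparisons with the empty vector were not run. Depth limits MT1A most, at 66 and 19 counts.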
